A study of Canis lupus familiaris with 6 samples.

Results

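The 200 gene identifiers that took the most reads in dog aortic endothelial cells are described here, in cultures exposed to polystyrene nanoplastics and in untreated cultures. They were chosen by level, as the 200 identifiers with the highest mean CPM (counts per 1000000 counts of the library) over all 6 libraries, out of 30951 in the table, or 0.646% of them. Endothelial cells of the line labelled CnAOEC, bought as canine aortic endothelial cells, were grown in medium with serum, and 3 cultures were exposed for 48 hours to polystyrene particles with a diameter of 100 nm, at 25 µg/mL, while 3 received none. The dose is in the unit of the treatment protocol, as the series' design text writes the same figure in µM. The labels give no donor, sex, age or passage, and do not say whether replicates came from separate donors or vials, so the spread behind the p-values is that among these libraries and may be technical in part.

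Endothelial cells form the inner lining of blood vessels, where they control the passage of molecules and cells, the tone of the vessel wall and clotting. In most cell types a small set of genes supplies a large part of the RNA, commonly those for ribosomal proteins, the cytoskeleton, secreted matrix, metabolism and the mitochondrial genome. Libraries of total RNA depleted of ribosomal RNA, as used here, also hold abundant RNAs without a poly(A) tail. The table pairs no identifier with a symbol, so which of the members belong to such classes is not stated, and the endothelial label could not be checked against marker genes. CPM is not divided by gene length, so a rank is a rank by share of reads, and a long transcript ranks higher than a short one present in as many copies. In bulk samples, fewer cells of a type and less RNA per cell cannot be told apart.

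The members held 33.8% to 37.1% of the counts of a library, whose totals ran from 12449440 to 15900331. Their mean level fell off steeply with rank, from 35587 CPM for the first to 574 CPM for the last, a range of 62-fold around a median of 891 CPM. There were 4 members over 10000 CPM, 9 over 5000 and 83 over 1000. The 50 highest alone held 23.2% of counts on average, and the 50 lowest held 3.16%. Every member had at least 6283 counts in every library, and averaged over the libraries, counting error alone gave a coefficient of variation (CV) of at most 1.10%. Each of the 200 was among the 12816 identifiers tested.

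**Figure D1:**
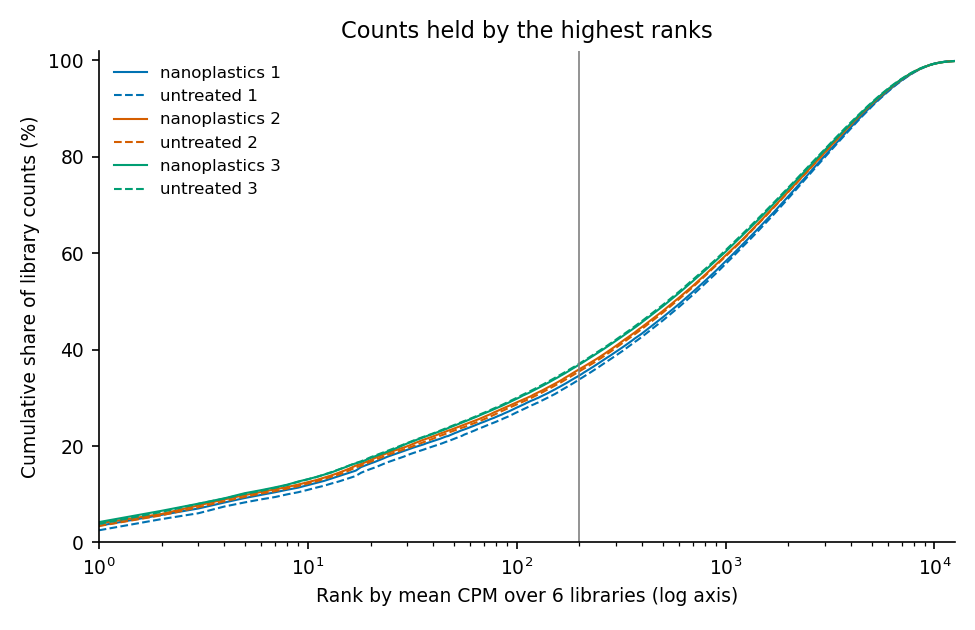
Cumulative share of library counts (%) against rank by mean CPM (log axis), with 1 line per library, solid for nanoplastics and dashed for untreated, and the grey line at rank 200. At rank 200 the lines lie between 33.8% (untreated 1) and 37.1% (untreated 3), and lines of the same replicate number lie next to each other.

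The rank limit cut through a dense part of the distribution. ENSCAFG00000010598 and ENSCAFG00000001211, at ranks 199 and 200, averaged 574.0 and 573.8 CPM, and the first outside, ENSCAFG00000001395 and ENSCAFG00000019081, averaged 572.1 and 569.0 CPM. The ranges over the 6 libraries of the last 2 inside (552 to 587 and 512 to 649 CPM) overlapped those of the first 2 outside (506 to 610 and 521 to 608 CPM). Of the members, 183 to 191 were also among the 200 highest of any single library, and 161 were so in all 6. Ranking by the untreated libraries alone kept 197 of the 200, and by the nanoplastics libraries alone 198.

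The highest member, ENSCAFG00000028460, took 2.51% to 4.21% of all counts of a library. It stood at 34510, 39563 and 42101 CPM in nanoplastics replicates 1, 2 and 3, and at 25116.5, 33939 and 38290 CPM in the untreated ones. The treated library was above the untreated library of the same number in 3 of 3 pairs, by 1.37-fold in pair 1, but the groups overlapped. In edgeR's quasi-likelihood test the log2 change came to 0.25 (standard error 0.21, adjusted p 0.9999). With the replicate number as a block it came to 0.28 (standard error 0.05, edgeR adjusted p 0.3734). In fits of all 6 libraries, edgeR and DESeq2 with the block (adjusted p 0.05913) left it uncalled at an adjusted p of 0.05, while the blocked edgeR fit without number 1 called it.

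ENSCAFG00000014345, the next in rank, stood at 22683, 19525 and 23514 CPM with nanoplastics and 23296, 22333 and 25015 CPM without, the treated library being the lower in 3 of 3 pairs. ENSCAFG00000014773 stood at 13210, 17746 and 14774 CPM with nanoplastics and 12124, 16753 and 16788 CPM without. Both libraries of number 1 were the lowest of the 6 for this member. ENSCAFG00000022723, the last above 10000 CPM, stood at 12461, 12405 and 11163 CPM with nanoplastics and 14035, 12568 and 10920 CPM without, with both libraries of number 3 the lowest.

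The other members of the first 10 ranged from 4235 to 10576 CPM in single libraries. ENSCAFG00000004529 averaged 9573 ± 895 CPM with nanoplastics and 9077 ± 621 without (SD, n = 3 each, as for the pairs of means that follow). ENSCAFG00000005843 averaged 6454 ± 69.3 and 6573 ± 335 CPM, and ENSCAFG00000001433 averaged 5594 ± 227 and 5380 ± 795 CPM. ENSCAFG00000016020 averaged 5238 ± 260 and 5522 ± 228 CPM and was lower with nanoplastics in 3 of 3 pairs. ENSCAFG00000005734 averaged 4955 ± 221 and 5019 ± 131 CPM. None of these 5 was called with nanoplastics by edgeR, limma-voom or DESeq2 in a fit of all 6 libraries. ENSCAFG00000014670 stood at 4243, 4956 and 6411 CPM with nanoplastics and 4235, 4987 and 6525 CPM without. The treated-to-untreated ratios of this member were 1.00, 0.994 and 0.983 in pairs 1, 2 and 3, while its numbers differed by up to 1.53-fold.

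**Figure D2:**
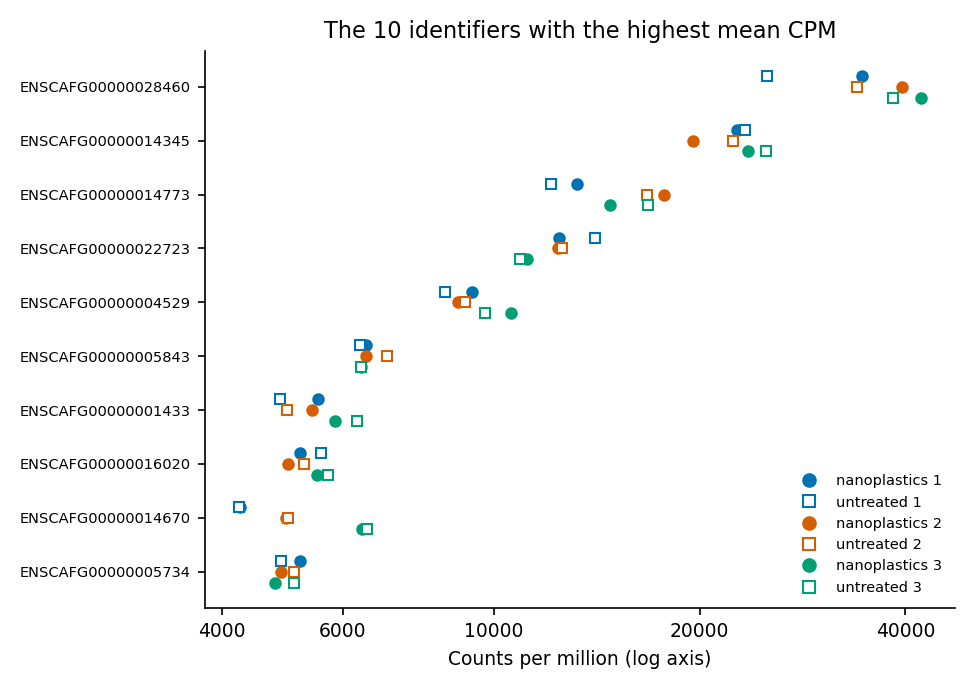
CPM (log axis) of the 10 members with the highest mean in each library, with filled circles for nanoplastics, open squares for untreated and 1 colour per replicate number. ENSCAFG00000028460 lies between 25116.5 and 42101 CPM, and for ENSCAFG00000014670 the points group by colour and not by shape.

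Exposure to nanoplastics, the comparison the series was made for, gave no member that passed the test. In edgeR's quasi-likelihood test with the group alone, 0 of 200 members were called at a Benjamini-Hochberg adjusted p under 0.05 over all identifiers, against a background of 0% called of 12816, and 2 members had an unadjusted p under 0.05 (1% against 0.89% of all tested). With the replicate block edgeR again called 0, with 10 members at an unadjusted p under 0.05 (5% against 3.83%) and a smallest adjusted p of 0.1608. Limma-voom called 0 without the block, with 1 member at an unadjusted p under 0.05 (background 0.874%), and 0 with it, with 13 (background 3.73%). DESeq2 called 0 without the block, with 2 members at an unadjusted p under 0.05 (background 0.487%). With the block DESeq2 called 1, against 0.0152% of its 19698 identifiers, and 9 had an unadjusted p under 0.05 (background 0.635%). The DESeq2 backgrounds are of the 19698 identifiers with any count, and those of edgeR and limma-voom of 12816. Background shares are therefore not comparable between DESeq2 and the other tools. Without both libraries of number 1, the blocked edgeR fit called 9 members, all higher, and 0.317% of all tested. That fit of 4 libraries has 1 residual degree of freedom.

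ENSCAFG00000029302, at rank 14, was the member called by DESeq2 with the block. It stood at 4509, 4987 and 5613 CPM with nanoplastics and 3761, 4394 and 4834 CPM without. Each treated library was above its untreated partner, and the groups overlapped because the levels of both also differed by replicate number. DESeq2 put its log2 change at 0.23 (standard error 0.05, adjusted p 0.01588). The blocked edgeR and limma-voom fits gave adjusted p-values of 0.3734 and 0.07967, and edgeR without the block 0.9999.

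The members with the lowest p-values in edgeR differed by up to 1.63-fold in a single pair. ENSCAFG00000028220 stood at 553, 941 and 788 CPM with nanoplastics and 487, 577 and 580 CPM without, higher in 3 of 3 pairs and with overlapping groups. Its estimate in the blocked edgeR fit, 0.45 ± 0.07 (log2 change and its standard error, adjusted p 0.1608), was the highest of the 200. ENSCAFG00000022735 stood at 629, 611 and 848 CPM with nanoplastics and 632, 444 and 523 CPM without, so the groups overlapped through replicate 1. On the lower side, ENSCAFG00000024955 stood at 1223, 1084 and 1198 CPM with nanoplastics and 1387, 1188 and 1275 CPM without. For this member the blocked edgeR fit gave -0.13 ± 0.05 (log2 change and its standard error, adjusted p 0.9998). ENSCAFG00000013773 stood at 681, 642 and 625 CPM with nanoplastics and 682, 748 and 675 CPM without (edgeR adjusted p 0.9999 without the block).

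Over all members the differences with nanoplastics were small. The blocked log2 change lay between -0.14 and 0.45, with a median of -0.01 and a median size of 0.03, against a median size of 0.08 over all tested identifiers. The ranks just below the members had almost the same median size, 0.033 in ranks 201 to 400 and 0.035 in ranks 401 to 1000, against 0.033 in the members. The blocked log2 change was within 0.1 of 0 for 182 of 200 members, against 58.7% of all tested. The 2 groups did not overlap in CPM for 2 members, both lower with nanoplastics (1%, against 2.29% of all tested on that side and 2.2% on the higher side). These were ENSCAFG00000004043, at 4667, 4610 and 4690 CPM with nanoplastics and 4752, 4807 and 4831 CPM without, and ENSCAFG00000009795, at 774, 814 and 771 CPM with nanoplastics and 823, 881 and 830 CPM without, named after their values were seen. After TMM scaling, which corrects CPM for library composition, 1 member was higher without overlap and 1 lower (0.5% each, against 2.35% and 2.4% of all tested). The direction was the same in 3 of 3 pairs for 15 members on the higher and 35 on the lower side (7.5% and 17.5%, against 10.6% and 13.1% of all tested), and for 13 and 26 after TMM scaling (against 11.1% and 12.5%).

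**Figure D3:**
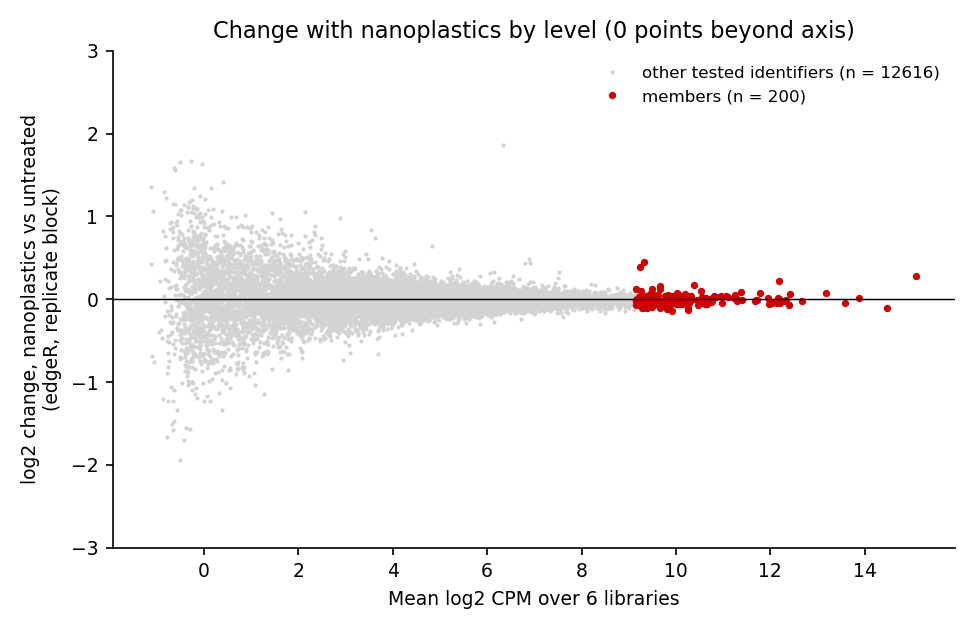
Blocked edgeR log2 change (nanoplastics against untreated) against mean log2 CPM for the 200 members (red) and the other 12616 tested identifiers (grey). The members lie between -0.14 and 0.45, a narrower band than identifiers at low levels.

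How large a difference the data leave room for was read from intervals. In limma-voom with the replicate block, the 95% interval stayed within 1.2-fold in either direction for 190 of 200 members (95%, against 37.1% of all tested). Without the block it stayed within 1.2-fold for 54 (27%, against 10.3%) and within 1.5-fold for 180 (90%, against 62.6%). These intervals are not adjusted for the number of identifiers. Limma-voom sets the spread of each identifier partly from all tested identifiers. An interval is therefore not a member's own spread alone. Of the 10 members whose blocked interval reached beyond 1.2-fold, ENSCAFG00000028220 had the highest upper bound (1.23 to 1.52-fold) and ENSCAFG00000022711 the lowest lower bound (0.721 to 1.37-fold). For the 2 most abundant of them, ENSCAFG00000028460 and ENSCAFG00000029302, it ran from 1.13 to 1.30-fold and from 1.11 to 1.23-fold. The treated-to-untreated CPM ratios of ENSCAFG00000022711 were 0.451, 1.64 and 1.39 in pairs 1, 2 and 3, with pairs 1 and 2 far outside its interval.

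In replicates 1, 2 and 3 the members together took 34.7%, 35.9% and 36.9% of the counts of the treated libraries and 33.8%, 35.5% and 37.1% of those of the untreated. The mean was 35.8 ± 1.13% against 35.5 ± 1.65% (SD, n = 3), a difference of 0.366 percentage points (exact permutation test, two-sided p = 0.8, adjusted over 5 nested sets 0.8). Leaving out nanoplastics replicate 3 turned the difference to -0.171 and leaving out untreated replicate 1 to -0.462. The 10 highest took 12.5 ± 0.612% and 12.1 ± 1.10% (exact p = 0.6, adjusted 0.8). The first member alone took 3.87 ± 0.386% and 3.24 ± 0.671% (exact p = 0.2, adjusted 0.8). The lowest p that 3 against 3 libraries allow is 0.1. Within pairs, the treated library had the higher share in 3 of 3 for the first member (by 0.939, 0.562 and 0.381 percentage points) and for the 10 highest (by 0.987, 0.288 and 0.0320). The exact sign-flip p over pairs was 0.25 for both, the lowest possible (adjusted over the 5 sets 0.5), and for the 200 it was 0.5, with 2 of 3 pairs higher. Without ENSCAFG00000028460 the remaining members took 31.2%, 32.0% and 32.7% of all counts with nanoplastics and 31.3%, 32.1% and 33.3% without. On that scale the treated library was the lower of each pair. Shares sum to a fixed total, so a higher share of 1 member lowers the share of all others. The counts of ENSCAFG00000028460 stayed in that total, so the lower shares do not show a fall in the remaining members.

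Replicate number, and not treatment, accompanied most of the variation among the members. Libraries of 1 number share a code in their names, which the labels do not explain. Summed over the members, 86.1% of the squared deviations of log2 CPM were between numbers, 3.60% between the treatment groups and 10.3% in the remainder, against 67.5%, 10.8% and 21.8% for all tested identifiers. Per degree of freedom the members' treatment share (3.60%) was below that of the remainder (5.14%). Over all tested identifiers the treatment share was 10.8%, against 10.9% for the remainder. When edgeR's quasi-likelihood test was applied to replicate number, with treatment as a covariate, 128 of 200 members were called (64%, against a background of 21.1% of all tested). The called share was lower in each group of lower ranks, but not at every step within the members, where 36, 30, 33 and 29 of 50 were called in successive groups of 50. It was 48.5% for ranks 201 to 400, 41.8% for ranks 401 to 1000 and 11.9% for the lowest ranks, where the median CV from counting alone was 14.4%, against 0.877% among the members. The highest mean of a number exceeded the lowest by a median of 1.21-fold among members, 1.17-fold in ranks 201 to 400 and 1.24-fold over all tested identifiers, and by at least 1.5-fold for 20 members (22.5% of all tested).

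**Figure D4:**
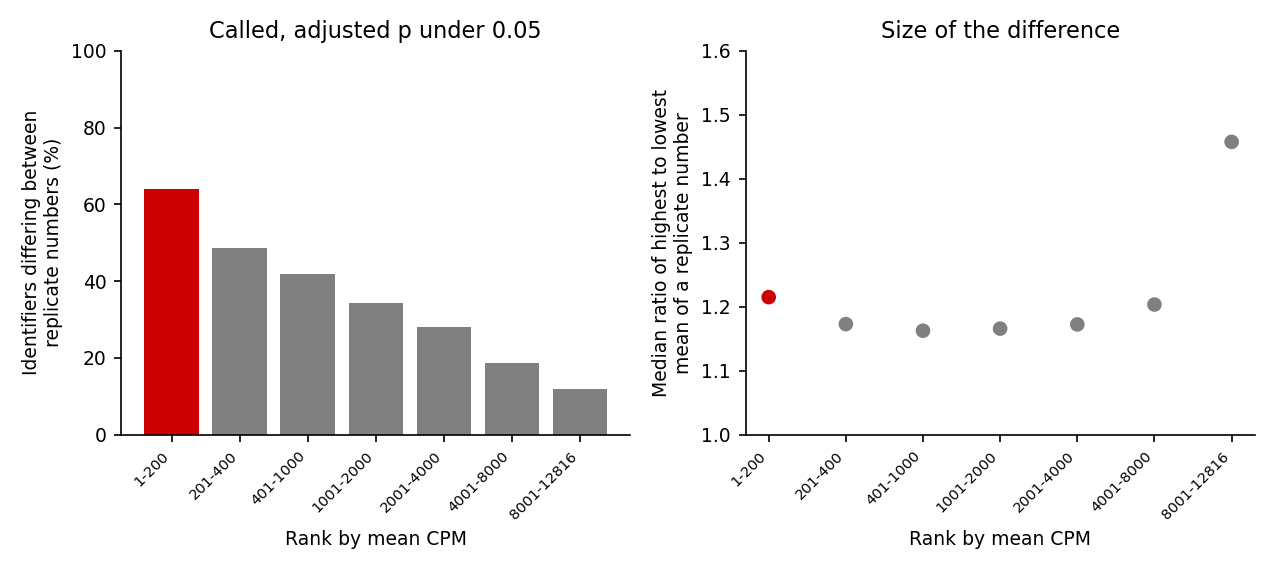
Left, percent of identifiers differing between replicate numbers (edgeR adjusted p under 0.05) by rank of mean CPM, members in red. Right, the median ratio of the highest to the lowest mean CPM of a number. The called share is 64% in ranks 1 to 200 and 11.9% in the last group, while the median ratio is 1.21 in the members and 1.46 in the last group.

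The member with the lowest p for replicate number was ENSCAFG00000025345, which stood at 791 and 852 CPM in the nanoplastics and untreated libraries of number 1, 1812 and 2026 in number 2, and 1880 and 1796 in number 3. Its means differed by 2.34-fold, the most of any member (edgeR adjusted p 4.6e-09). ENSCAFG00000006022 stood at 504 and 525 CPM in number 1, 1061 and 1049 in number 2, and 737 and 706 in number 3 (edgeR adjusted p 4.409e-08). ENSCAFG00000013735 stood at 456 and 489, 816 and 814, and 948 and 930 CPM (edgeR adjusted p 4.652e-08). The 3 numbers did not overlap for ENSCAFG00000006022 and ENSCAFG00000013735, and for ENSCAFG00000025345 numbers 2 and 3 did.

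ENSCAFG00000008704, at rank 18, went the other way and had the highest CV of the members, 46.1%. It stood at 7286 and 6613 CPM in number 1, 3231 and 3022 in number 2, and 2644 and 3498 in number 3, a ratio of 2.26-fold between the means of numbers 1 and 3 (edgeR adjusted p 6.022e-07). ENSCAFG00000008640 stood at 1131 and 1050, 536 and 495, and 747 and 792 CPM, and differed by 2.11-fold between numbers 1 and 2 (edgeR adjusted p 1.98e-07). At the other end, ENSCAFG00000005776 lay between 715 and 747 CPM in all 6 libraries, with a CV of 1.61% against 0.97% from counting alone. The CVs of ENSCAFG00000004043 and ENSCAFG00000010598 were 1.81% and 2.20%. The median CV was 9.50% among members, 8.34% in ranks 201 to 400, 8.17% in ranks 401 to 1000 and 25.8% in ranks 8001 to 12816, and 13.5% over all tested identifiers.

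The direction of the differences between numbers was uneven among the members. Between numbers 1 and 3, 16 members were called higher in number 1 and 73 lower (8% and 36.5%, against 7.11% and 6.95% of all tested). Against number 2, number 1 had 29 members higher and 63 lower (14.5% and 31.5%, against 9.53% and 8.77%), and against number 3, number 2 had 12 higher and 41 lower (6% and 20.5%, against 3.56% and 3.75%). With scaling by library totals only, the split between numbers 1 and 3 was 31 higher and 62 lower among members, while over all tested identifiers it moved from 911 and 891 to 1492 and 696. On that scaling the members' split was 39 and 59 between numbers 1 and 2, against 1478 and 1005 over all tested, and 21 and 37 between numbers 2 and 3, against 604 and 434. Among the 128 called members, number 1 was the lowest for 69, number 2 for 42 and number 3 for 17. Number 3 was the highest for 54, number 2 for 43 and number 1 for 31. These counts used mean CPM on library totals and were not made over all tested identifiers.

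A group of 8 members mostly shared a direction within each pair. Their identifiers fall in an unbroken run of 37 consecutive numbers, ENSCAFG00000022708 to ENSCAFG00000022744, which also fills 37 consecutive rows of the table. It was the only such run that held more than 1 member. The table does not say what the run is, and it was singled out after its values were seen. Of the 37 identifiers 19 had a count in some library and 16 were tested, and the 8 members were ENSCAFG00000022709, ENSCAFG00000022711, ENSCAFG00000022723, ENSCAFG00000022726, ENSCAFG00000022729, ENSCAFG00000022730, ENSCAFG00000022735 and ENSCAFG00000022739. Together they took 1.96%, 1.96% and 2.00% of counts with nanoplastics and 2.36%, 1.85% and 1.79% without. The untreated library of number 1 was the highest of the 6.

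In pair 1 all 8 were lower in the treated library, in pair 2 the treated library was higher for 7, and in pair 3 for all 8. Of all 200 members, 86, 83 and 90 were higher in the treated library of pairs 1, 2 and 3. On TMM-scaled CPM 7 of 8 were lower in pair 1, with ENSCAFG00000022735 at a ratio of 1.01, and the counts of pairs 2 and 3 were the same. ENSCAFG00000022711 had the widest swing, at 457, 657 and 880 CPM with nanoplastics and 1014, 400 and 634 CPM without. Its treated-to-untreated ratio was 0.451 in pair 1, 1.64 in pair 2 and 1.39 in pair 3. ENSCAFG00000022709 stood at 1055, 1218 and 1496 CPM with nanoplastics and 2010, 910 and 1053 CPM without, ratios of 0.525, 1.34 and 1.42. ENSCAFG00000022723, the most abundant of the run, moved least, with ratios of 0.888, 0.987 and 1.02, so the 8 did not shift by a common factor. Of the members whose ratio reached 1.2-fold in either direction, the run supplied 3 of 5 in pair 1, 5 of 9 in pair 2 and 4 of 7 in pair 3. Neither these counts nor those of direction per pair were made over all tested identifiers. The run was chosen with its ratios known, so its part in these counts is description only. None of the 8 was called in the blocked edgeR fit of all 6 libraries (smallest adjusted p 0.9613, for ENSCAFG00000022735, which alone had an unadjusted p under 0.05), and DESeq2 and limma-voom with the block also called 0 of them. Of the 9 members that the blocked edgeR fit called without number 1, 5 were in the run: ENSCAFG00000022709, ENSCAFG00000022711, ENSCAFG00000022726, ENSCAFG00000022729 and ENSCAFG00000022735. The other 4 were ENSCAFG00000028460, ENSCAFG00000029302, ENSCAFG00000028220 and ENSCAFG00000001778.

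**Figure D5:**
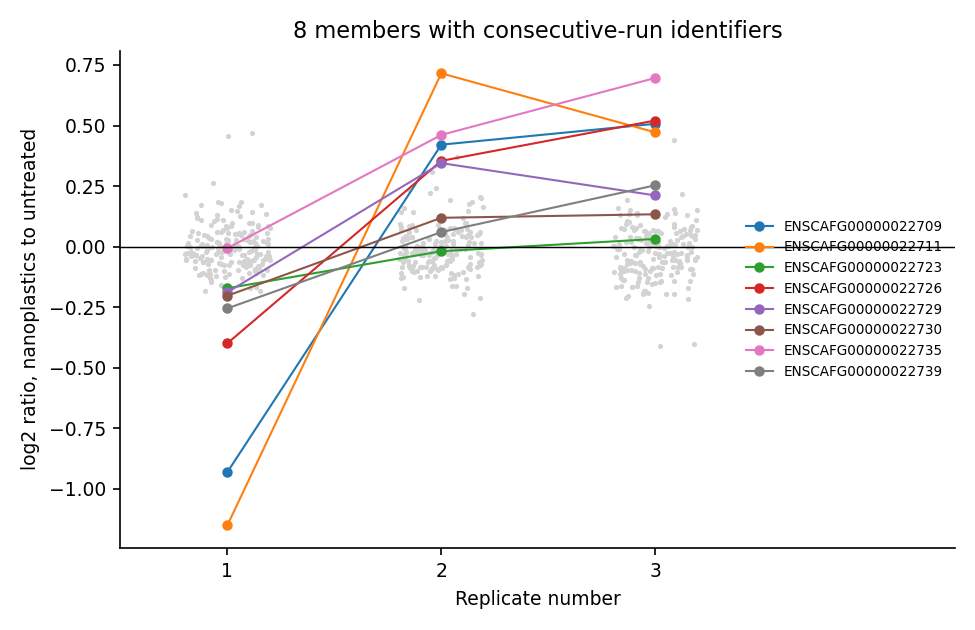
Log2 ratio of nanoplastics to untreated CPM in each pair (replicate number on the x axis) for the 8 members in the run of consecutive identifiers (coloured lines) and the other 192 members (grey points). The 8 lie at or below 0 in pair 1 and, with ENSCAFG00000022723 the exception in pair 2, above 0 in pairs 2 and 3.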

How the data were processed

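RNA was sequenced from 6 cultures, and the authors deposited raw read counts per Ensembl dog gene identifier, with 1 column per library and no pooling. The submitters' processing notes list STAR 2.7.11a, Trimmomatic 0.39, FastQC 0.12.1 and DESeq2, with the build CanFam3.1. How reads were counted, with which annotation and strand setting, is not given in the sources used here, and values of overlapping or near-identical genes are uncertain. The table of RefSeq genes lists 43286, and 0 of them carry an Ensembl identifier, so no symbol, sequence or coordinate is given, and no gene list or cell type marker was tested.

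Columns were matched to samples by library name. Members were ranked by mean CPM on the raw library totals, and printed CPM and ratios are on that scale. The members were thus chosen by level. Fits used edgeR 4.0.16 on all identifiers passing filterByExpr (minimum count 10), with TMM scaling. The group alone was the main model, and the replicate number as a block, DESeq2 1.42.0 and limma 3.58.1 (voom) were alternatives, in R 4.3.3. All p-values are two-sided, with Benjamini-Hochberg adjustment. In edgeR and limma-voom the adjustment ran across every tested identifier. In DESeq2 it ran across the identifiers kept by that tool's own filter on mean count, and for the shares across the 5 nested sets. The standard error of an edgeR log2 change is its size over the square root of F. Log2 CPM for sums of squares used a prior count of 2. Scripts were tested on simulated counts.

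The numbers pair the libraries: they share codes in the library names, and the correlation of their deviations from the group mean was 0.598, 0.538 and 0.353 in turn, against -0.445 to -0.0216 for other combinations. Deviations from a group mean sum to 0 within the group. Values above 0 for the same number thus push the other combinations below 0, which is no separate support. Libraries of 1 group differed by 13.0 to 32.5 in chi-square per degree of freedom, and none was taken for a copy. The members, lists and tests were chosen with earlier results of these data known. Identifiers named are the 10 highest, those next to the rank limit, the lowest p-values per direction and fit, any called in an alternative, and the extremes of CV and of the ratio between numbers. Others are marked as named after their values were seen, apart from the run and the list of wide intervals, which were also chosen afterwards.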

Additional observations from a re-analysis of the deposited data

How the results depend on the processing

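In edgeR with the group alone, the count of members called with nanoplastics stayed at 0 under other scalings and other filters. The same count was 0 when each single library was left out. Each of these edgeR fits called 0 of all tested identifiers, and the members' smallest adjusted p was 0.9997 or higher. The count of called members was also 0 in DESeq2 and limma-voom fitted without the block, and in edgeR and limma-voom with the replicate block. Calls of the blocked edgeR fit were not counted under other scalings or filters. The 2 other rankings of the members were read from the main fit. That fit called 0 of all tested identifiers, so the count of 0 under these rankings was fixed in advance. DESeq2 with the replicate block called 1. In the blocked edgeR fit, leaving out a replicate number gave 0 to 9 calls, the 9 without number 1, all higher (0.317% of all tested were called there, 41 in all). They included 5 of the 8 members of the run of consecutive identifiers. That fit has 1 residual degree of freedom and an infinite prior weight, so no identifier had a spread estimate of its own. The log2 changes of the 5 members named for that comparison kept their direction in 19 alternatives each, which is no support, since they were picked for low p-values. With 1 library left out these log2 changes ran from 0.29 to 0.67 for ENSCAFG00000028220 (0.48 with all), 0.21 to 0.51 for ENSCAFG00000022735 (0.39), 0.11 to 0.33 for ENSCAFG00000029302 (0.22), -0.18 to -0.08 for ENSCAFG00000024955 (-0.13) and -0.15 to -0.06 for ENSCAFG00000013773 (-0.11). Members called between replicate numbers were 125 to 148 under other scalings, filters, tools and models, against 128, while 9.31% to 24.5% of all tested were called. The 9.31%, from DESeq2, and 16.9%, from edgeR without a filter, are of 19698 identifiers, and the rest of these are of 12816. With 1 library left out 90 to 135 members and 15.1% to 22.2% of all tested were called. Of the 90 without nanoplastics replicate 2, 88 were among the 128. The difference in the members' share of counts was 0.427 percentage points with TMM scaling and 0.373 with members ranked by median CPM, and ran from -0.462 to 1.19 with 1 library left out, reversed at -0.171 and -0.462. Sign flips within pairs, as the replicate block for that share, gave an exact p of 0.5, where 0.25 is the lowest possible. As to depth, the median CV from counting alone was 0.877% among the members, beside a median biological coefficient of variation in edgeR of 12.1% without the block and 5.54% with it. For ENSCAFG00000005776 the CV was 1.61%, with 0.97% expected from counting alone.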

Other observations

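Across the 200 members, the log2 ratios of treated to untreated CPM in pairs 1 and 2 had a Pearson's r of -0.189 but a Spearman's rho of 0.164. For pairs 1 and 3 r was -0.510 and rho -0.477, and for pairs 2 and 3 r was 0.436 and rho 0.134. The points are identifiers within the same libraries and are not replicates, and no library belongs to 2 pairs. Over the 192 members outside the run of consecutive identifiers, r was 0.368, -0.308 and 0.147 and rho 0.266, -0.433 and 0.0454 in the same order. The sign for pairs 1 and 2 thus differed between r and rho with the run included.

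Beyond its 8 members, the run ENSCAFG00000022708 to ENSCAFG00000022744 held 8 further tested identifiers below the rank limit. Counting these, 14 of 16 were lower in the treated library of pair 1, while 13 of 16 in pair 2 and 15 of 16 in pair 3 were higher. ENSCAFG00000022717, at a mean of 117 CPM, had treated-to-untreated ratios of 0.807, 1.54 and 2.03, and ENSCAFG00000022744, at 9.90 CPM, had ratios of 0.529, 1.44 and 1.63. ENSCAFG00000022734, at 361 CPM, was below 1 in every pair, with ratios of 0.902, 0.958 and 0.982. The whole run took 1.90% to 2.48% of counts, the most in untreated replicate 1.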
